A study of Homo sapiens with 2 samples.

Results

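Transforming growth factor beta (TGF-beta) ligands, receptors and SMADs were described through 9 genes: TGFB1, TGFB2, TGFBR1, TGFBR2, SMAD2, SMAD3, SMAD4, SMAD7 and SKIL. They were taken by gene symbol from a table of 62699 genes, and all 9 were found. The set was chosen by pathway with the ratios between these same libraries known, so its values are a description, and nothing is tested on them. Polyadenylated RNA was sequenced from HCC1954, an established line of human breast cancer cells with amplified ERBB2, the gene of the HER2 receptor. The genotype labels name 1 library ASO-NC and 1 ASO-1235, and the series asks how the long non-coding RNA LINC01235 affects transcription. ASO is the usual short form of antisense oligonucleotide. Both libraries share the same cell line. The labels do not state the sequence, dose or duration of the oligonucleotides. The library with the genotype ASO-1235 is titled with the prefix Si, and its genotype was used. With 1 library per group there is no replicate check of any difference and no p-value.

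TGF-beta ligands are secreted in a latent form and, once released, bring together a type II receptor (TGFBR2) and a type I receptor (TGFBR1). The type I receptor phosphorylates SMAD2 and SMAD3, which join SMAD4 and act on genes in the nucleus. Among the genes switched on are SMAD7 and SKIL, whose proteins restrain the same pathway. In breast epithelium the pathway is known for holding back proliferation and, in tumour cells, for promoting mesenchymal traits.

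The ASO-NC library held 48092494 counts and the ASO-1235 library 37916307. The counts of LINC01235 were 1337 in ASO-NC and 0 in ASO-1235. The upper bound of its ratio was 0.00662, on the scale and the interval explained next. The table does not show whether this exact 0 was counted or was set during processing. Levels are given as counts per 1000000 (CPM) on libraries scaled by the trimmed mean of M values (TMM), and ratios are ASO-1235 over ASO-NC. Each ratio has an exact 95% interval on halved counts, since the mates of read pairs appear to have been counted separately. These intervals describe counting error only, because 1 library per group holds no spread between replicates. Reads amplified by PCR and not tagged by molecule are not independent, so the intervals may be too narrow even for counting error. ERBB2 stood at 4860 and 4628 CPM, and all 8 genes of an epithelial list that also held EPCAM, CDH1, GRB7 and 4 keratins passed 1 CPM. Of the markers of other cell types, 2 of 10 fibroblast genes, 1 of 8 endothelial genes and 2 of 10 immune genes reached 1 CPM in a library. FAP of the fibroblast list, at 28 and 53 counts and above 1 CPM in ASO-1235 alone, was called higher, and LYZ of the immune list, at 98 and 44 counts, lower. The part of other cells in the results was not tested. The summed level of these lists was 45.7 and 42.3 CPM for fibroblasts, 8.99 and 8.27 CPM for endothelium and 4.03 and 3.99 CPM for immune cells, in ASO-NC and ASO-1235. COL1A1 made up 44.3 and 39.9 CPM of the fibroblast sum, while PDGFRB, THY1 and POSTN had 0 counts in both libraries, as did TEK of the endothelial list and CD3D of the immune list. In bulk RNA, a different number of cells that express a gene and a different amount of RNA per cell cannot be told apart.

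A call, higher or lower, required 1 CPM in either library, a difference of 1.5-fold or more and an interval without 1. By this rule 2 of the 9 genes, TGFB2 and SKIL, were higher in ASO-1235 and 0 were lower, and SKIL lost its call when a trend on GC content and transcript length was removed. Of all 14291 genes tested, 5.05% were called higher and 2.03% lower. The split of these calls depended on the scaling: 722 were higher and 290 lower with TMM, against 1032 and 180 with scaling by total count. All 9 genes reached 1 CPM in a library, TGFB2 in ASO-1235 alone, so it passed this filter through the library where it was high. Of the 9 genes, 8 had a ratio above 1, and TGFB1 had a ratio below 1, beside 49.7% above and 50.3% below over all genes tested. At 2-fold TGFB2 was the only one of the 9 called, where 2.24% of all genes were called higher and 0.518% lower. At a log2 ratio of 0.32, the smallest size tried, TGFB2, SKIL, SMAD4 and TGFBR1 were called higher, where 11.9% of all genes were higher and 8.85% lower. Since these libraries chose the genes, nothing is read from these shares. The median log2 ratio of the 9 genes was 0.31, beside −0.0025 over all genes tested.

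**Figure D1:**
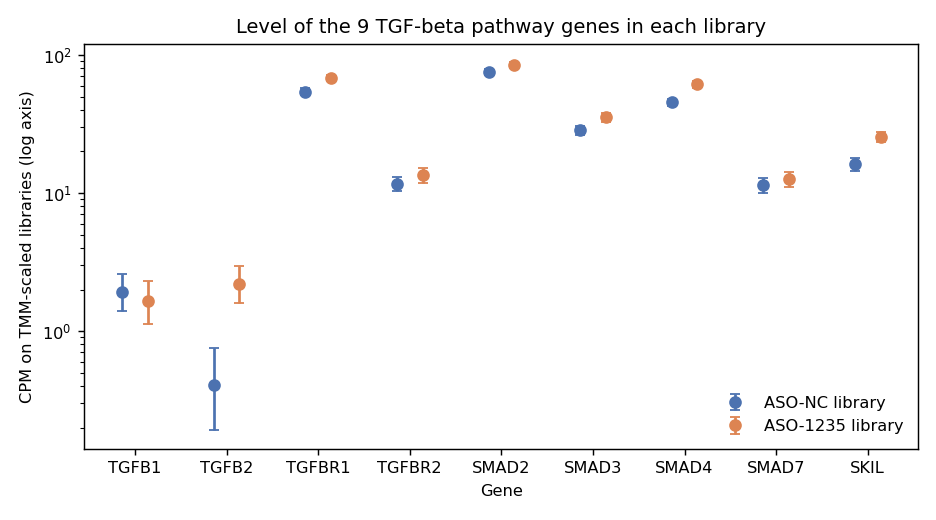
Level of each of the 9 genes (horizontal axis) in CPM on TMM-scaled libraries (vertical log axis), with 1 point per library and bars for the exact 95% Poisson interval on halved counts. TGFB2 stood at 0.407 CPM and 2.20 CPM with bars that do not overlap, while the bars of TGFB1, TGFBR2 and SMAD7 overlap between the libraries.

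The ligand genes TGFB1 (chr19:41301587-41353911, minus strand, GENCODE 29 on GRCh38) and TGFB2 (chr1:218346235-218444619, plus strand) were both close to the limit of 1 CPM. TGFB2, which encodes TGF-beta 2, a ligand that needs a co-receptor to bind TGFBR2 with high affinity, had 19 counts (0.407 CPM) in ASO-NC, against 86 (2.20 CPM) in ASO-1235. Its ratio was 5.41 (2.64 to 12.3), the highest of the 9 genes, and the counting intervals of the levels did not overlap. Among genes at a mean under 5 CPM, where TGFB2 lies, 12.9% were called higher and 5.53% lower. With a minimum of 5 CPM TGFB2 was not tested and its call was lost, while SKIL was called. TGFB1, which encodes the most widely studied ligand, had 90 counts (1.93 CPM) and 64 counts (1.64 CPM), a ratio of 0.850 (0.523 to 1.37). The libraries could not be told apart for TGFB1 at this depth. On the opposite strand HNRNPUL1, at 28951 and 22023 counts, shares 215 bases of exon with TGFB1. Whether the counting used strand is not stated in the labels, so reads from these bases cannot be assigned. TGFB2 shares exon bases only with TGFB2-OT1, which had 0 counts in both libraries.

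Counts of the ligand genes were also compared within each library, which does not depend on the scaling. TGFB2 took 17.4% (8.50 to 30.1) of the counts of TGFB1 and TGFB2 in ASO-NC and 57.3% (45.4 to 68.7) in ASO-1235. The intervals of these shares, exact binomial on halved counts, did not overlap, and per kilobase of transcript the shares were 10.4% and 42.4%. No trend on GC content was removed from these shares, and the genes differ in it, 38.9% for TGFB2 and 63.5% for TGFB1. With a trend on GC content and transcript length removed the ratios were 4.69 (2.29 to 10.7) for TGFB2 and 0.967 (0.595 to 1.56) for TGFB1. TGFB3, which encodes the ligand not among the 9 genes, was added to the sum after its counts were seen, because it had 4505 and 3228 counts. The ratio of TGFB3 was 0.857 (0.803 to 0.914), with an interval below 1 and a size under 1.5-fold. With a trend on GC content and transcript length removed it was 0.871 (0.817 to 0.929). TGFB3 made up 97.6% (96.9 to 98.2) of the counts of the 3 ligand genes in ASO-NC and 95.6% (94.5 to 96.5) in ASO-1235. The share of TGFB2 in this sum was 0.412% (0.193 to 0.768) and 2.55% (1.85 to 3.41). TGFB1 held 1.95% and 1.89%. The summed level of all ligand genes listed, with the activin genes, was 219.7 CPM in ASO-NC, against 202 CPM in ASO-1235. Of 9 ligand genes 8 were tested, 2 were called higher, TGFB2 and INHBA, and 0 lower, with 2 ratios above 1 and a median log2 ratio of −0.15. Both reached 1 CPM in ASO-1235 alone, where they were high, so this count is a description and is read beside the 12.9% called higher among all genes under 5 CPM.

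The promoter windows of these ligand genes are shown because the 2 genes differ both in ratio and in sequence. Each window runs from 250 bases before to 50 bases after the annotated start (RefSeq, GRCh38.p14), in lower case with the motifs searched in capitals. The SMAD letters searched were GTCTAGAC (a SMAD binding palindrome) and CAGAC, called the SMAD core here, which is not contained in that palindrome. The others were TGANTCA (AP-1), TGACGTCA (cyclic AMP response element), CACGTG (E-box), GGAATG (TEAD) and an NFI site. Both strands were searched. All 9 genes had windows in the table, 24 in all, as several genes have more than 1 annotated start. The TGFB2 window lies at chr1:218345086-218345385 on the plus strand, with a GC content of 51.7%, and it ends before the GENCODE 29 start of the gene at 218346235. That of TGFB1 lies at chr19:41353873-41354172 on the minus strand, with a GC content of 77.3%.
TGFB2: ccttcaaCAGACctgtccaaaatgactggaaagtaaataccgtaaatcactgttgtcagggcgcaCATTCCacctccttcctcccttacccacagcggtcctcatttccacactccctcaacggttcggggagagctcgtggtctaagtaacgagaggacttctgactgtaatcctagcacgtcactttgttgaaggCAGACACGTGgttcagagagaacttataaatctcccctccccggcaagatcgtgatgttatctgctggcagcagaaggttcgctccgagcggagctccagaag
TGFB1: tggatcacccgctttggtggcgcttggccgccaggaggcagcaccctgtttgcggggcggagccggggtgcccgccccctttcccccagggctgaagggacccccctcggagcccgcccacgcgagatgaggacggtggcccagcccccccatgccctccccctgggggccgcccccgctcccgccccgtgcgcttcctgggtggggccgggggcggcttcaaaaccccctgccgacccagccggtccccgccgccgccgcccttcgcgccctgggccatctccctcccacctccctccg
Counted from the first transcribed base as 0, the TGFB2 window holds the SMAD core CAGAC at −243 and −53. An E-box, CACGTG, begins at −49 and shares its first base with the second core. The TEAD letters lie on the minus strand at −185. The SMAD core was found in 45.3% of the 35116 promoter windows of the table, the TEAD letters in 4928 windows and the E-box in 7.26%. The TGFB1 window holds none of the motifs. A match describes the letters and is not evidence of binding.

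The receptor genes TGFBR1 (chr9:99104038-99154192, plus strand) and TGFBR2 (chr3:30606502-30694142, plus strand) had ratios nearer to 1 than TGFB2 and SKIL. TGFBR1, the type I receptor kinase that phosphorylates SMAD2 and SMAD3, had 2534 counts (54.3 CPM) in ASO-NC, against 2672 (68.4 CPM) in ASO-1235. Its ratio of 1.26 (1.17 to 1.36) had an interval above 1 but stayed under 1.5-fold. TGFBR2, the type II receptor that binds the ligand first, had 544 counts (11.6 CPM) and 524 counts (13.4 CPM), a ratio of 1.15 (0.968 to 1.37). The levels of TGFBR2 overlapped within counting error. TGFBR1 made up 82.3% (80.3 to 84.2) of the counts of the receptor pair in ASO-NC and 83.6% (81.7 to 85.4) in ASO-1235, with intervals that overlap. Of 9 receptor and co-receptor genes, 8 were tested and 0 were called in either direction, with 7 ratios above 1 and a median log2 ratio of 0.27. Among all genes tested 5.05% were called higher, 2.03% lower and 49.7% had a ratio above 1. ENG, the gene of the co-receptor endoglin, had 63 and 77 counts, a ratio of 1.46 (0.889 to 2.42) with an interval that includes 1. With a trend on GC content and transcript length removed, ENG was called higher at 1.66 (1.01 to 2.74), with a lower bound close to 1. In that form 4.31% of all genes were called higher. Before removal 12.9% were called higher among genes at a mean under 5 CPM, where ENG lies.

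The SMADs of the activating branch are SMAD2 (chr18:47808957-47931146, minus strand), SMAD3 (chr15:67063763-67195195, plus strand) and SMAD4 (chr18:51028394-51085045, plus strand). SMAD2, which encodes a receptor-activated SMAD, had 3508 counts (75.1 CPM) in ASO-NC, against 3288 (84.2 CPM) in ASO-1235. Its ratio was 1.12 (1.05 to 1.20). SMAD3, the other receptor-activated SMAD of this branch, had 1329 counts (28.5 CPM) and 1378 (35.3 CPM), a ratio of 1.24 (1.11 to 1.38). SMAD4, the partner shared by all receptor-activated SMADs, had 2118 counts (45.4 CPM) and 2403 (61.5 CPM), a ratio of 1.36, or 0.44 (0.32 to 0.56) on the log2 scale. All 3 had intervals above 1 and sizes under 1.5-fold. SMAD2, SMAD4 and TGFBR1 had a mean level of 50 CPM or more, where 0.784% of genes were called higher and 0.235% lower. SMAD2 took 72.5% (70.7 to 74.3) of the counts of SMAD2 and SMAD3 in ASO-NC and 70.5% (68.6 to 72.3) in ASO-1235, again with overlapping intervals. Per kilobase of the longest transcript the shares of SMAD2 were 32.3% and 30.2%, under those of SMAD3, and with its second longest transcript 57.7% and 55.2%. An antisense gene over 182 exon bases of SMAD3 had 1 and 11 counts, and a gene sharing exon bases with SMAD4 had 0 in both. The SMAD list as a whole, with the SMADs of the bone morphogenetic protein (BMP) branch, had 8 genes tested, 1 called higher and 0 lower, beside 5.05% and 2.03% of all genes. That gene was SMAD9, a receptor-activated SMAD of the BMP branch. It had 52 and 136 counts, a ratio of 3.13 (1.96 to 5.12). SMAD9 lies at a mean under 5 CPM, where 12.9% of genes were called higher and 5.53% lower.

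**Figure D2:**
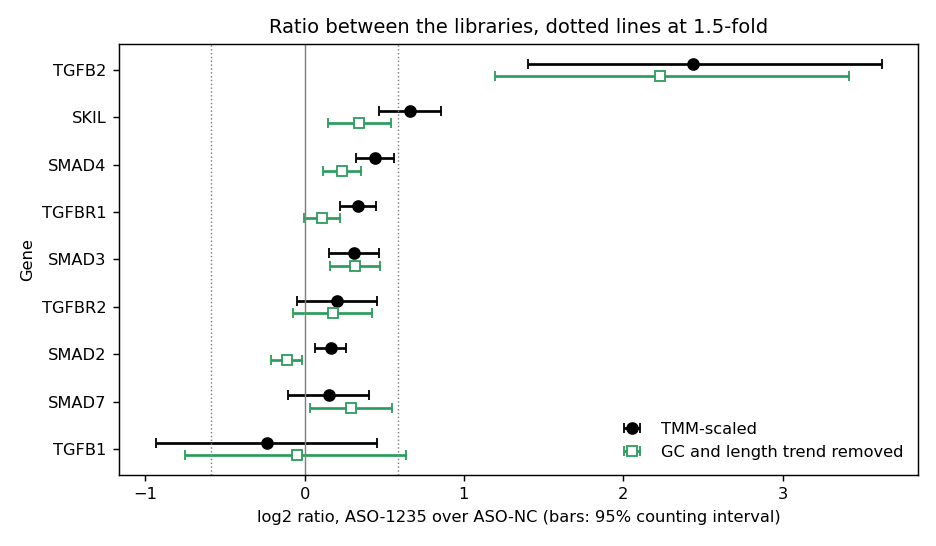
Ratio of ASO-1235 over ASO-NC on the log2 scale (horizontal axis) for each of the 9 genes (vertical axis), on TMM-scaled libraries (filled circles) and with the trend on GC content and length removed (open squares), with 95% counting intervals. TGFB2 lies past the 1.5-fold line in both forms, and SKIL moves from 0.66 to 0.34.

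The feedback inhibitors are SMAD7 (chr18:48919853-48952052, minus strand) and SKIL (chr3:170357678-170396835, plus strand), and SKIL alone of them was called. SKIL encodes SnoN, a co-repressor that binds SMADs, and had 753 counts (16.1 CPM) in ASO-NC, against 996 (25.5 CPM) in ASO-1235. Its ratio was 1.58 (1.38 to 1.81), or 1.27 with the trend removed, and the counting intervals of the levels did not overlap. Among genes at a mean of 5 to 50 CPM, where SKIL lies, 3.13% were called higher and 1.11% lower. SMAD7, an inhibitory SMAD that recruits ubiquitin ligases to the receptor, had 530 counts (11.4 CPM) and 492 (12.6 CPM), a ratio of 1.11 (0.929 to 1.33) with an interval that includes 1. SMAD7 took 7.08% (6.28 to 7.95) of the counts of SMAD2, SMAD3, SMAD4 and SMAD7 in ASO-NC and 6.51% (5.74 to 7.34) in ASO-1235, or 17.7% and 15.9% per kilobase. SKI, the gene of the related co-repressor, had 2944 and 2398 counts and a ratio of 0.974 (0.902 to 1.05). SKIL took 20.4% (18.6 to 22.3) of the counts of SKI and SKIL in ASO-NC and 29.3% (27.2 to 31.6) in ASO-1235, and these intervals did not overlap. No trend was removed from these shares, and the genes differ in GC content, 33.4% for SKIL and 60.0% for SKI. With the trend removed the ratios were 1.27 (1.11 to 1.45) for SKIL and 1.07 (0.990 to 1.16) for SKI, with intervals that overlap.

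The promoter window of SKIL is shown because it is the other gene called higher. It lies at chr3:170357465-170357764 on the plus strand (RefSeq, GRCh38.p14), with the motifs searched in capitals and a GC content of 79.0%.
SKIL: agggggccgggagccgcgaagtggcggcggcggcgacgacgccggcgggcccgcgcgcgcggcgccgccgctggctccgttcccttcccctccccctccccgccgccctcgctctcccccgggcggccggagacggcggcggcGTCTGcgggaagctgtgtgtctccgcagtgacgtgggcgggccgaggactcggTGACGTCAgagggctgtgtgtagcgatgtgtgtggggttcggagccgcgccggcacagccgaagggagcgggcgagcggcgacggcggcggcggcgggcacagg
It holds the cyclic AMP response element TGACGTCA at −54, found in 1.85% of all windows, and the SMAD core on the minus strand at −107. Of the 24 windows of the 9 genes, 1, that of SKIL, held the cyclic AMP response element. The SMAD palindrome, found in 0.202% of all windows, and the NFI site, found in 0.0285%, were in none of the 24. The AP-1 letters, found in 7.71% of all windows, were in 1 window each of TGFBR2 and SMAD3. The SMAD core, found in 45.3% of all windows, was in 11 of the 24, which belong to 5 genes: TGFB2, TGFBR1, SMAD3, SMAD7 and SKIL. Some windows of TGFBR1 overlap, so the same letters can count in more than 1 window.

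**Figure D3:**
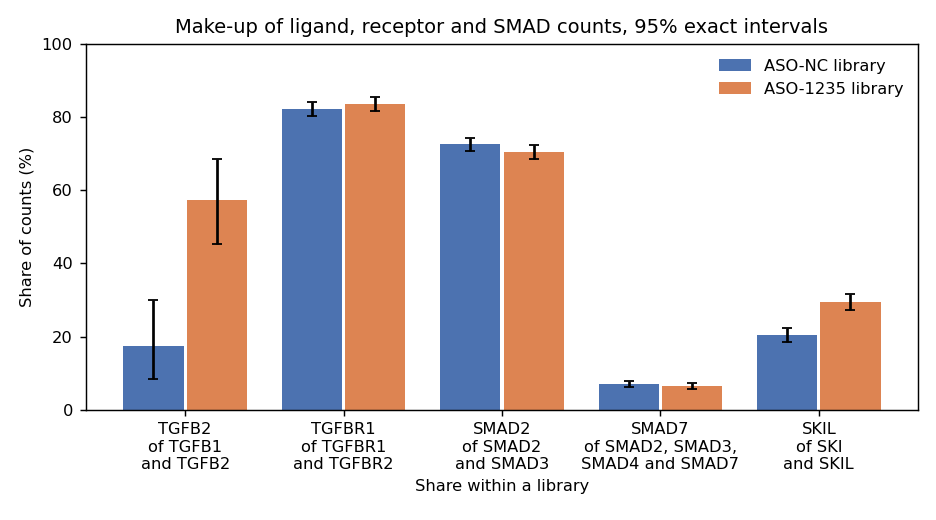
Share of counts in percent (vertical axis) that 1 gene takes among named genes (horizontal axis) in each library, with exact 95% binomial intervals on halved counts. The shares of TGFB2 and SKIL differ between the libraries without overlap of the bars, and those of TGFBR1, SMAD2 and SMAD7 overlap. No trend on GC content and length was removed from the shares.

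Levels of different genes were compared per kilobase of the longest annotated transcript. In the ASO-NC library TGFBR1 was highest at 8.33 CPM per kilobase. SMAD4 at 5.17 and SMAD3 at 4.56 followed, with intervals that overlap each other. SMAD7 at 2.56, TGFBR2 at 2.52, SKIL at 2.25 and SMAD2 at 2.18 CPM per kilobase each overlapped the next in order. TGFB1 stood at 0.696 and TGFB2 at 0.0805 CPM per kilobase, apart from each other and from the rest. In the ASO-1235 library the order of the first 3 genes was the same, with TGFBR1 at 10.5, SMAD4 at 7.02 and SMAD3 at 5.65 CPM per kilobase and no overlap between them. SKIL ranked 4 there at 3.55 CPM per kilobase, against rank 6 in ASO-NC, though its interval overlapped that of TGFBR2. TGFB1 at 0.592 and TGFB2 at 0.436 CPM per kilobase overlapped in this library. The place of SMAD2 rests on an annotated transcript of 34526 nucleotides. With its second longest, of 12075 nucleotides, a length chosen after the values were seen, SMAD2 stood at 6.22 and 6.97 CPM per kilobase, between TGFBR1 and SMAD4 in ASO-NC and close to SMAD4 in ASO-1235.

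**Figure D4:**
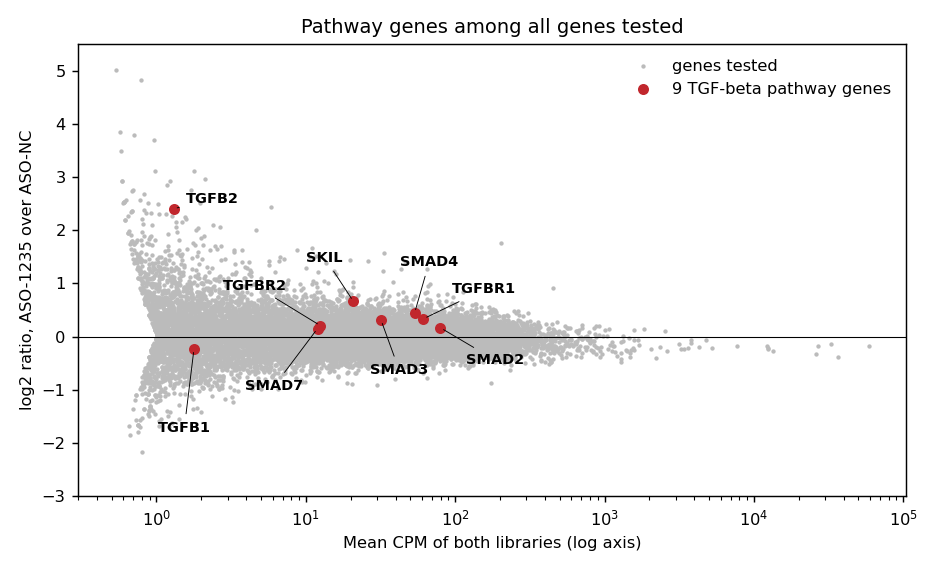
log2 ratio of ASO-1235 over ASO-NC with a prior count of 0.5 (vertical axis) against the mean CPM of both libraries (horizontal log axis) for all 14291 genes tested (grey) and the 9 genes (red). TGFB2 and TGFB1 lie among weakly expressed genes, whose ratios spread widely, and 1 gene, LINC01235, lies below the range drawn.

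The ratio moved with the base composition of transcripts across the whole table. Tested genes were put in 5 bands of near equal size by GC content. The median log2 ratio was 0.20 in the lowest band, from 27.8% to 40.9% GC, and −0.19 in the highest, from 57.9% to 76.0%. The part of this trend in the ratios of the 9 genes was not tested. The 4 of them in the lowest band were SKIL at 33.4% GC, TGFB2 at 38.9%, TGFBR1 at 39.0% and SMAD2 at 40.2%. SMAD4, at 41.1%, lay in the second band. TGFBR2 at 47.4% and SMAD3 at 50.4% lay in the third, where the median log2 ratio was −0.014. SMAD7 at 58.7% and TGFB1 at 63.5% lay in the highest band.

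With a trend on GC content and transcript length taken out, TGFB2 alone of the 9 genes remained past 1.5-fold, with a ratio of 4.69 (2.29 to 10.7). In that form 4.31% of 13963 genes were called higher and 1.40% lower. SKIL stood at 1.27 (1.11 to 1.45), so its call at 1.5-fold was lost while its interval stayed above 1. SMAD4 was at 1.18 (1.08 to 1.28) and TGFBR1 at 1.08 (0.999 to 1.17). SMAD2 changed sides, to 0.925 (0.864 to 0.989). Its trend was taken at its longest annotated transcript, of 34526 nucleotides, and no other length was tried for it. SMAD3 moved little, to a log2 ratio of 0.32 from 0.31, and SMAD7 went up to 1.22 (1.03 to 1.46), with an interval above 1. TGFBR2 was at 1.13 (0.949 to 1.34) and TGFB1 at 0.967 (0.595 to 1.56). Before removal 6 of the 9 intervals lay above 1 and 0 below, beside 22.7% above and 23.2% below among all genes tested. Afterwards 5 lay above and 1 below, beside 16.5% and 21.3%.

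Genes that TGF-beta is known to switch on were described from a list of 30 that includes SMAD7 and SKIL. Of the 23 tested, 8 were called higher and 0 lower, with 20 ratios above 1 and a median log2 ratio of 0.22. Over all genes tested 5.05% were called higher, 2.03% lower and 49.7% had a ratio above 1, and nothing particular to the list is read from this. KLF10, a Krüppel-like factor first found as a TGF-beta inducible gene, had 4334 counts in ASO-NC and 12227 in ASO-1235, a ratio of 3.37 (3.21 to 3.54). Its relative KLF11 had 1115 and 1692 counts, a ratio of 1.81 (1.63 to 2.02). BIRC3, which encodes an inhibitor of apoptosis and also answers to NF-kB, had 646 and 963 counts, a ratio of 1.78 (1.54 to 2.06). The others called higher were SKIL, TGFBI, CDKN1A, TIMP1 and LTBP2, with ratios from 1.51 to 1.62. With the trend removed 6 of the 23 were called higher and the median was 0.30, beside 4.31% of all genes called higher, and SKIL and BIRC3 were no longer called.

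Several standard targets of the pathway gave no call. They are named here after their values were seen. CCN2, the gene of connective tissue growth factor, had 24 and 21 counts, under 1 CPM in each library. ACTA2, the gene of smooth muscle actin, had 0 counts in ASO-NC, against 38 (0.973 CPM) in ASO-1235. The lower bound of its ratio was 5.58, and it gave no call only because it stayed just under 1 CPM. PMEPA1, a feedback inhibitor that traps receptor-activated SMADs, had 12969 and 12597 counts, a ratio of 1.16 (1.12 to 1.20). JUNB was at 1.06 (0.984 to 1.14) and FN1, which encodes fibronectin, at 0.860 (0.733 to 1.01). Of the 4 genes listed as repressed by TGF-beta, 0 were called, beside 5.05% higher and 2.03% lower among all genes tested. Their median log2 ratio was −0.20, and −0.053 with the trend on GC content and length removed. ID1 was at 0.849 (0.786 to 0.918), ID2 at 0.886 (0.837 to 0.938), CDC25A at 0.812 (0.696 to 0.947) and ID3 at 1.36 (1.16 to 1.58). With the trend removed ID1 was at 0.970 (0.898 to 1.05) and ID2 at 0.957 (0.904 to 1.01), both with intervals that include 1. In that form CDC25A was at 0.847 (0.726 to 0.987), and ID3 was called higher at 1.53.

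Of 21 genes whose products regulate SMADs, 20 were tested, 2 were called higher and 0 lower, beside 5.05% and 2.03% of all genes and 12.9% called higher among those under 5 CPM, where DAB2 lies. They were SKIL and DAB2, which encodes an adaptor of receptor traffic. DAB2 had 73 and 104 counts, a ratio of 1.70 (1.09 to 2.68). The ubiquitin ligase genes SMURF1 and SMURF2, the partners of SMAD7, named after their values were seen, were at 0.935 (0.838 to 1.04) and 1.16 (1.05 to 1.28). RNF111, the gene of the ligase Arkadia that degrades SnoN and SMAD7, named likewise, was at 1.26 (1.15 to 1.38). The median log2 ratio of this list was 0.20, and 0.027 with the trend removed.

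**Figure D5:**
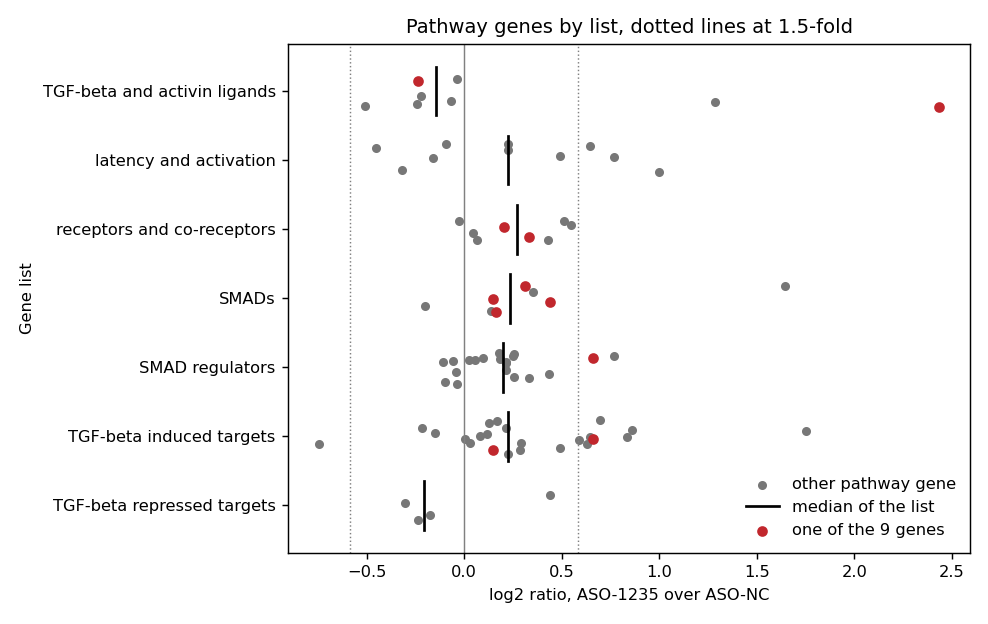
log2 ratio of ASO-1235 over ASO-NC (horizontal axis) of each tested gene in 7 pathway lists (vertical axis), with the 9 genes in red, the others in grey, a black line at each median and dotted lines at 1.5-fold. The medians lie at 0.20 to 0.27 in 5 of the lists and below 0 for the ligands and the repressed targets.

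The genes with values most like those of TGFB2 were sought among 875 protein-coding genes at a mean level within 1.5 times its own. Likeness was the distance between log2 ratios, over only 2 libraries, so it describes 1 number per gene. The nearest were ANPEP, ETV1, OLR1, IRAG1 and CACNA1G, with ratios from 4.69 to 5.76. Genes without counts in one of the libraries were left out of the 875. Of the 875 genes, 4 had a higher ratio than TGFB2. TGFB2 was taken because its ratio lay farthest from 1 among the 9 genes, so nothing is read from this rank.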

How the data were processed

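The authors deposited raw counts per gene for 2 libraries. STAR 2.7.11a, featureCounts 2.0.6 and the build hg38 were used, per the submitters' processing notes. Neither the annotation release nor the strand setting is stated there. Counts were used as deposited. For 1 gene ID no counts were given, and it was left out. Of the counts from 1 to 1000, 67.5% in ASO-NC and 64.0% in ASO-1235 were even numbers, so intervals were computed on counts divided by 2.

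TMM factors (edgeR 4.0.16, R 4.3.3) of 0.971 and 1.03 came from genes at 1 CPM. Intervals are Clopper-Pearson given the sum of both counts. Medians used a prior count of 0.5. Lengths, GC content and gene positions came from GENCODE 29 (58206 IDs matched), and promoters from RefSeq. The trend was fitted robustly (statsmodels 0.14.6) with a spline of 5 degrees of freedom for GC content and one for log length. DESeq2 1.42.0 served for alternative size factors alone. The calculation was tested on simulated data.

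The 9 genes, the pathway lists and the motifs were chosen with earlier results of these data known. Genes named are the 9 genes, LINC01235, ERBB2 and, of each list, up to 3 called genes each way, by the interval bound nearest to 1, with the 5 genes nearest to TGFB2. All other genes were named after their values were seen.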

Additional observations from a re-analysis of the deposited data

How the results depend on the processing

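Each group has 1 library, so counting intervals are the error shown, and the ratio of TGFB2 rests on 19 counts in ASO-NC. No paired analysis was possible because each group has a single library. All 9 ratios kept their side of 1 with DESeq2 size factors, upper quartile, total count, total count without mitochondrial genes and a prior count of 5. SMAD2 alone changed sides when the GC and length trend was removed, to a log2 ratio of −0.11, with its length taken as 34526 nucleotides. The log2 ratio of TGFB2 ranged from 2.15 to 2.52 and that of SKIL from 0.34 to 0.75.

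Of the 9 genes, 1 was called higher with the trend removed and 1 at 2-fold, TGFB2 in both, 1 with a minimum of 5 CPM, SKIL, where TGFB2 was not tested, and 4 at a log2 ratio of 0.32. With the trend removed, 2 were called at 0.32, an alternative added after the data were seen. Over all genes, total count gave 180 lower. Without a minimum 1126 were higher. A minimum of 5 CPM gave 270 higher and 104 lower, 2-fold gave 320 and 74, a log2 ratio of 0.32 gave 1696 and 1265, and 0.32 with the trend removed gave 1125 and 823. The median of the SMAD regulators was 0.28 with total count. A higher or no minimum changes which genes are tested, and another size changes the call itself. The cause was not tested for the scaling or the trend.

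Shares per kilobase of the longest transcript, in ASO-NC and ASO-1235, were 76.8% and 78.3% for TGFBR1, 32.3% and 30.2% for SMAD2, 17.7% and 15.9% for SMAD7, and 16.7% and 24.5% for SKIL. That of TGFB2 in ASO-1235 was 42.4%.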

Other observations

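Genes listed under the latency and activation of TGF-beta had ratios on both sides of 1. Of 12 listed, 10 were tested, 6 had a ratio above 1 and 4 below, 3 were called higher and 0 lower, with a median log2 ratio of 0.23. Over all genes tested 5.05% were called higher, 2.03% lower and 49.7% had a ratio above 1, and under 5 CPM, where LRRC32 lies, 12.9% were called higher. ITGB8, which encodes an integrin subunit that activates latent TGF-beta, had 182 and 259 counts in ASO-NC and ASO-1235, a ratio of 1.70 (1.29 to 2.25). LRRC32, which encodes GARP, a protein that anchors latent TGF-beta at the cell surface, had 64 and 107 counts, and the interval of its ratio ran from 1.27 to 3.20. LTBP2, of the family of latent TGF-beta binding proteins, had 185 and 242 counts, a ratio of 1.56 (1.18 to 2.07). With the trend on GC content and length removed ITGB8 stood at 1.41 (1.07 to 1.87), LRRC32 at 2.20 and LTBP2 at 1.65. LTBP3 and LTBP4, named after their values were seen, had ratios of 0.802 (0.733 to 0.877) and 0.732 (0.593 to 0.900), both under 1.5-fold in size. With the trend removed LTBP3 stood at 0.892 (0.815 to 0.975) and LTBP4 at 0.812 (0.659 to 0.999), nearer to 1.

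Among activin genes INHBA, which encodes the subunit of activin A and reached 1 CPM in ASO-1235 alone, had 24 and 49 counts, a ratio of 2.44 (1.18 to 5.35). INHBB, which encodes the subunit of activin B and was named after its values were seen, was far more abundant at 113 and 108 CPM, with a ratio of 0.953 (0.900 to 1.01).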
